A study of Mus musculus with 20 samples.

Results

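The clustered histone genes are the many small genes, named Hist1, Hist2, Hist3 and Hist4 after their clusters, that encode the core histones H2A, H2B, H3 and H4 and the linker histone H1. Of 24513 gene symbols counted in each library, 68 had such a name. The 18 of them with at least 10 counts in at least 5 of the 20 libraries are described here, with Hist1h2bc, an H2B gene, set against the other 17. The count threshold used the level of a gene and no difference between genotypes. Hist1h2bc, however, was singled out with earlier results of these data known.

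Most histone mRNA is made during DNA replication and, unlike other mRNA, ends in a short stem-loop without a poly(A) tail. A library made from polyadenylated RNA therefore leaves most of it out. Some clustered genes also give longer, polyadenylated transcripts that run past the stem-loop, and these are known from cells that have stopped dividing, which include neurons. Replication-independent variants, such as the H3.3 gene H3f3a, lie outside the clusters and have ordinary poly(A) tails.

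Polyadenylated RNA came from hippocampi of male mice aged 9 months, labelled C57BL/6J, in 5 libraries for each of 4 genotypes. WT carried no alteration named in the labels. C3aR KO is the label for loss of the receptor of the complement fragment C3a, PS19 for a transgene of mutant human tau driven by the mouse prion promoter, and PS19/C3aR KO for both. Nothing in the labels ties a library to its own animal, so p-values cover only the spread among these libraries, part of which may be technical.

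Gene counts came to 33885850 to 47828111 per library. C3ar1, the gene named in the knockout label, went against that label: in CPM (gene counts scaled to the same library total) WT averaged 2.03, PS19 10.5, C3aR KO 15.97 and PS19/C3aR KO 17.2, so C3aR KO stands below for a label. Prnp, whose promoter drives the transgene, was at 1826 to 2023 CPM in both PS19 groups and at 807 to 914 CPM in the others. The summed CPM of 15 microglial markers was 326 to 347 in WT, 482 to 1127 in PS19, 339 to 389 in C3aR KO and 407 to 782 in PS19/C3aR KO. Rn45s, a ribosomal RNA precursor, took 3.59% of gene counts on average in WT, 1.85% in PS19, 1.92% in C3aR KO and 2.31% in PS19/C3aR KO. PS19 library 5 stood apart from the other PS19 libraries, with the lowest microglial sum and 3.65% of counts from Rn45s, where the rest had 0.873 to 1.77%. In whole tissue, fewer cells of a type and less RNA per cell cannot be told apart.

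The stem-loops are shown first because they mark where a replication-type transcript would end. Counts are per gene, so whether the counted reads came from transcripts that run past a stem-loop was not tested. In GENCODE vM21 transcripts (GRCm38, the build named mm10 in the labels) the histone stem-loop, searched as a 16-letter palindrome with its allowed variants on the transcript strand, was present in 14 of the 18 described genes. It was present in 30 of the 50 other clustered genes and in 4 of 21810 other protein-coding genes (0.0183%). Each sequence below has the stem-loop in capitals with 5 bases on either side, for the called genes that have one and for the most abundant genes with one:

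Hist1h1c: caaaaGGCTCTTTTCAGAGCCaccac

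Hist1h1e: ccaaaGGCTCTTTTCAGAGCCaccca

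Hist1h4h: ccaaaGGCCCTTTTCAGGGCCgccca

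Hist1h2be: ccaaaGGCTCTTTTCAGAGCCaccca

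Hist1h4i: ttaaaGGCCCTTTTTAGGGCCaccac

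Hist3h2a: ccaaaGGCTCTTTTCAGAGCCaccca

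Hist3h2ba: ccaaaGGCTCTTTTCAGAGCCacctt

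The H1, H2A and H2B genes in this set shared the same 16 letters, while each H4 gene had its own. This did not hold over all described genes. Hist4h4 had the letters of Hist1h4h, Hist2h4 those of Hist1h4i, and the H2A gene Hist2h2ac differed from Hist3h2a. Annotated transcripts ran on past the stem-loop by 840 bases in Hist1h1c, 1153 in Hist1h1e, 46 in Hist1h4h, 330 in Hist1h4i, 1643 in Hist3h2a and 169 in Hist3h2ba. A poly(A) signal, AATAAA or ATTAAA, lay in the last 40 bases of a transcript for 10 of the 18 described genes and for 7 of the 50 others, and 9 of the 18 had both a stem-loop and such a signal. The longest annotated transcript had a median length of 1202.5 bases among the described genes and 498 bases among the others. A stem-loop or signal past the end of an annotated transcript, or between its exons, could not be found. Some transcripts without a stem-loop match were short, as in Hist1h4k (312 bases), Hist2h2bb (381) and Hist1h2bn (381), while those of Hist1h2bc and Hist2h2be were longer. These counts and lengths therefore describe the annotation, and a difference between the genes themselves was not tested. Hist1h2bc shared its form in part with other described genes. Its 1 annotated transcript has 1156 bases in 2 exons spread over chr13:23684199-23692908 on the plus strand. Neither the stem-loop nor a poly(A) signal in the last 40 bases was found in it. The stretch between its 2 exons was not searched, so a stem-loop there would have been missed. The other gene among the 5 most abundant without a stem-loop match was Hist2h2be. It has a single-exon transcript of 2620 bases that did have a poly(A) signal. Among the less abundant described genes, Hist1h2be also had transcripts of 2 exons, and Hist2h2bb and Hist1h4k also had neither stem-loop nor signal.

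Of the 68 genes, 10 had no count in any library and 40 had some counts but missed the threshold. The 18 described genes held 97.2% of all counts of the 68. They were 11 of the 54 Hist1 genes, 4 of 10 Hist2 genes, 2 of 3 Hist3 genes and the 1 Hist4 gene. By histone they were 2 of 6 H1 genes, 4 of 18 H2A, 6 of 19 H2B, 1 of 12 H3 and 5 of 13 H4. Just inside the threshold were Hist1h3d, with 5 libraries at 10 or more counts, and Hist4h4, with 6. Just outside were Hist2h3b, with 4, and Hist3h2bb-ps, with 3. In 12 of the 18 genes all 20 libraries had 10 or more counts. None of the 18 reached the threshold through 1 genotype alone: the libraries of the other 6 genes with 10 or more counts came from 3 or 4 genotypes. Hist1h3d had 1 such library in WT, 2 in PS19, 2 in PS19/C3aR KO and 0 in C3aR KO. It would have missed the threshold without its PS19 libraries.

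Reads that align to more than 1 place are set aside in counting of this kind, which bears on genes as alike as these. Cut into windows of 76 bases, the read length, the described genes had a median of 75.5% of their transcript windows in no other annotated gene, against 52.1% for the 40 low genes and 9.19% for the 10 at 0. Hist1h2aa, an H2A gene, was at 0 although 82.9% of its windows were its own. Hist2h2bb, an H2B gene, had 797 counts although none of its windows was its own, so its counts are uncertain. The share is only a rough guide to reads that align to more than 1 place. Gene models that overlap, as those of Hist1h1e and Hist1h2be do, also share windows, and pairs rather than single reads were aligned. The share was 73.0% for Hist1h2bc, 93.4% for Hist1h1c, 71.8% for Hist1h1e and 57.7% for Hist1h4h. A level of 0 or near 0 in the other genes is therefore a statement about uniquely placed reads.

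**Figure D1:**
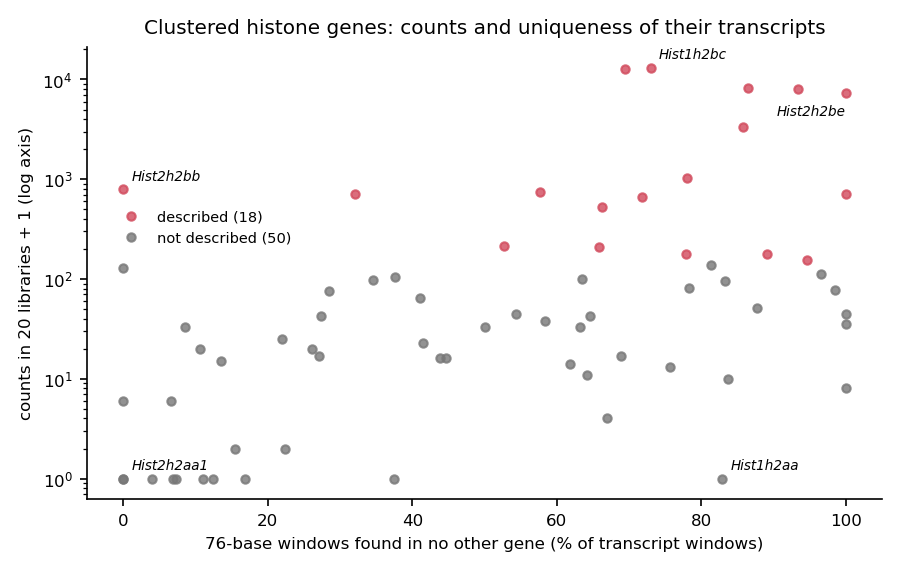
Total counts over 20 libraries plus 1 (log axis) against the percentage of 76-base transcript windows found in no other annotated gene, 1 point per clustered histone gene. The 18 described genes (red) have a median of 75.5%, Hist2h2bb lies at 0%, and the 10 genes at 0 counts lie along the bottom.

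Levels were concentrated in a few genes. Over all 20 libraries Hist1h2bc averaged 16.9 CPM, Hist3h2a (H2A) 16.3, Hist3h2ba (H2B) 10.6, Hist1h1c (H1) 10.2, Hist2h2be (H2B) 9.43 and Hist1h2be (H2B) 4.28. The other 12 genes ran from 1.34 CPM for Hist1h4i down to 0.199 CPM for Hist4h4. CPM is not scaled by length, so the order between genes was also taken per kb of GENCODE exon: Hist3h2ba then led with 17.2 CPM per kb, followed by Hist1h2bc with 14.6, Hist3h2a with 7.58, Hist1h1c with 6.56 and Hist2h2be with 3.60. That order depended on the gene model. With the shorter RefSeq model of 508 bases in place of the GENCODE one of 2146 bases, Hist3h2a rose to 32.0 CPM per kb and Hist3h2ba, at 462 bases, to 22.9. The release of the annotation behind the counts is not given in the sources used here.

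Within each histone class the genes differed widely in CPM over the 20 libraries. Among the H2A genes, whose protein pairs with H2B in the nucleosome, Hist3h2a ran from 13.7 to 19.9 CPM, Hist2h2ac from 0.192 to 1.07, Hist1h2ae from 0.102 to 0.463 and Hist1h2ac from 0.0561 to 0.488. Among the H2B genes, beside Hist1h2bc, Hist3h2ba ran from 9.28 to 12.7 CPM, Hist2h2be from 6.19 to 12.7, Hist1h2be from 2.84 to 6.69, Hist2h2bb from 0.539 to 1.89 and Hist1h2bg from 0.0857 to 0.436. Hist1h3d, the 1 gene of H3, the partner of H4, ran from 0.0590 to 0.759 CPM. The H4 genes were all low, at 0.514 to 2.58 CPM for Hist1h4i, 0.383 to 1.44 for Hist1h4k, 0.407 to 1.39 for Hist2h4 and 0.0256 to 0.437 for Hist4h4, with Hist1h4h given below. All 6 described H3 and H4 genes stayed below 3 CPM in every library.

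PS19 set against WT addresses the tau transgene. In PS19, 4 genes of the Hist1 cluster rose by 1.43-fold to 2.42-fold: Hist1h1c and Hist1h1e, which encode linker histones, the H2B gene Hist1h2bc and the H4 gene Hist1h4h. A gene is called when its edgeR quasi-likelihood p, adjusted by Benjamini-Hochberg over 16657 genes, was below 0.05. So 4 of the 18 genes were called, all higher, where 7.5% of all tested genes were called higher and 10.8% were called in either direction. The lowest PS19 library exceeded the highest WT library in 5 of the 18, the called genes and Hist1h4i, against 8.11% of all tested genes.

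Hist1h2bc was at 15.5, 12.9, 18.5, 15.4 and 16.3 CPM in WT libraries 1 to 5 and at 15.8, 13.4, 14.3, 13.9 and 16.1 CPM in those labelled C3aR KO. It was at 24.8, 22.9, 21.9, 28.2 and 19.8 CPM in PS19 and at 14.99, 8.75, 12.7, 15.7 and 16.5 CPM in PS19/C3aR KO. The PS19 libraries were the highest 5 of the 20, and the other groups overlapped one another. The mean was 15.7 ± 1.998 CPM in WT, 23.5 ± 3.18 in PS19, 14.7 ± 1.21 in C3aR KO and 13.7 ± 3.13 (SD, n = 5 throughout) in PS19/C3aR KO. These rest on 365 to 1067 counts per library. In PS19 minus WT the log2 fold change was 0.52 (edgeR adjusted p = 0.0198, SE 0.14). The call depended on single libraries and on 1 covariate: the adjusted p was 0.0548 without WT library 2, 0.0663 without PS19 library 4 and 0.139 when the Rn45s share entered as a covariate, at log2 fold changes of 0.45, 0.44 and 0.48.

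Hist1h1c, which encodes a linker histone that binds where DNA enters and leaves the nucleosome, lies at chr13:23738808-23740367 on the plus strand. It was at 9.17, 6.05, 6.92, 8.14 and 7.22 CPM in WT and at 7.51, 8.51, 9.99, 9.78 and 9.35 CPM in C3aR KO. In PS19 it was at 13.4, 12.9, 14.3, 20.2 and 10.5 CPM, and in PS19/C3aR KO at 9.83, 5.82, 9.53, 13.8 and 11.6 CPM. Every PS19 library was above every WT and C3aR KO library, while PS19/C3aR KO ran from below WT into the PS19 range. The log2 fold change in PS19 minus WT was 0.86 (edgeR adjusted p = 0.00514, SE 0.19), and 0.64 with the Rn45s covariate, where the call was lost (adjusted p = 0.105).

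Hist1h1e, the other linker histone gene described, lies at chr13:23620629-23622558 on the minus strand, and its last bases overlap the annotated span of Hist1h2be on the same strand. It was at 0.590, 0.661, 0.657, 0.563 and 0.654 CPM in WT and at 0.591, 0.752, 0.654, 0.627 and 0.565 CPM in C3aR KO. In PS19 it was at 1.18, 0.936, 1.52, 1.63 and 0.820 CPM, and in PS19/C3aR KO at 0.561, 0.455, 1.03, 1.39 and 1.09 CPM. The PS19 libraries were above all WT libraries, and PS19/C3aR KO had 2 libraries below the WT range and 3 inside the PS19 range. The log2 fold change was 0.90 (edgeR adjusted p = 0.0269, SE 0.25) in PS19 minus WT on only 20 to 27 counts per WT library. It missed the threshold without WT library 1 (adjusted p = 0.0509), WT library 4 (0.0676), PS19 library 3 (0.0781) or PS19 library 4 (0.0790). With the Rn45s covariate it was 0.65 (adjusted p = 0.267).

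Hist1h4h, one of many genes for the same H4 protein, lies at chr13:23531050-23531519 on the plus strand. It was at 0.796, 0.343, 0.429, 0.691 and 0.855 CPM in WT and at 0.668, 0.778, 0.953, 0.828 and 0.544 CPM in C3aR KO. In PS19 it was at 1.39, 1.82, 1.95, 1.68 and 1.07 CPM, and in PS19/C3aR KO at 0.786, 0.359, 0.767, 1.35 and 1.06 CPM. All PS19 libraries were above all WT and C3aR KO libraries, and only PS19/C3aR KO library 4 reached above the lowest PS19 library. The log2 fold change in PS19 minus WT was 1.28 (edgeR adjusted p = 0.00827, SE 0.30), the highest of the 18 genes. That call too was lost with the Rn45s covariate, at 1.002 (adjusted p = 0.130).

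**Figure D2:**
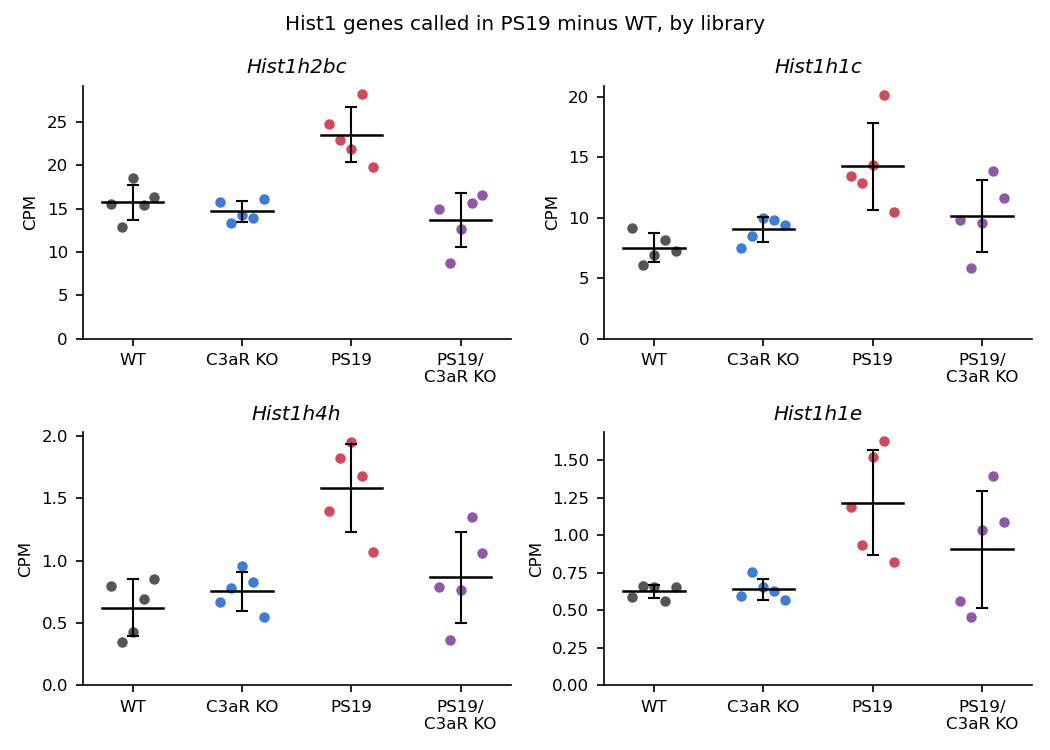
CPM by library for the 4 genes called in PS19 minus WT; points are libraries, long bars the mean and short bars ± SD over 5 libraries per group, with each axis starting at 0. In every panel all PS19 libraries lie above all WT libraries; in the Hist1h2bc panel they also lie above all PS19/C3aR KO libraries.

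By cluster, the median log2 fold change was 0.74 over the 11 Hist1 genes and 0.14 over the 7 genes of Hist2, Hist3 and Hist4, against 0.45 over all 18 and -0.0068 over all genes tested. The difference between clusters was not tested. Of the 4 genes next to Hist1h2bc in level, Hist1h1c passed and the other 3 did not: Hist3h2a had a log2 fold change of 0.074 (SE 0.093), Hist3h2ba one of 0.063 (SE 0.072) and Hist2h2be one of 0.056 (SE 0.15). Each of these 3 overlapped between groups. Hist3h2a was at 13.7 to 17.8 CPM in WT and 15.2 to 19.1 in PS19, Hist3h2ba at 9.29 to 10.9 and 10.2 to 12.7, and Hist2h2be at 6.19 to 9.74 and 6.44 to 11.0. Other Hist1 genes that were not called had values of 0.82 for Hist1h2bg, an H2B gene (adjusted p = 0.116), 0.74 for Hist1h4i, an H4 gene (0.174), and 0.49 for Hist1h2be (0.127). Of these, Hist1h2bg rested on only 3 to 19 counts per library. Hist1h4i was at 0.514 to 1.26 CPM in WT and at 1.34 to 2.07 CPM in PS19, without overlap. The log2 fold change was above 0 in all 18 genes, also with other size factors and with library totals alone, and in 16 to 18 of them with 1 library left out. It was above 0 in 16 of them with the Rn45s share as a covariate, Hist3h2a and Hist3h2ba being the exceptions. Hist1h3d, at 0.90, is in these counts and in the Hist1 median, although it met the count threshold only with its PS19 libraries. The signs are a description without a test, and the share of all tested genes above 0 is not given.

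Along the Hist1 cluster, which spreads over chromosome 13, Hist1h2bc and Hist1h1c were next to each other among the 11 described genes, and uncalled described genes lay between the other called ones. Relative to the start of Hist1h2bc, Hist1h4h lay at -153 kb, Hist1h1e at -63.6 kb and Hist1h1c at 54.6 kb. Hist1h2ac, the H2A gene that starts back to back with Hist1h2bc, had a log2 fold change of 0.40 (SE 0.38) that was not called, on a mean of 0.224 CPM. The 2 most distant genes, both H4 genes, had values of 0.28 (Hist1h4k, SE 0.32) and 0.74 (Hist1h4i, SE 0.33).

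**Figure D3:**
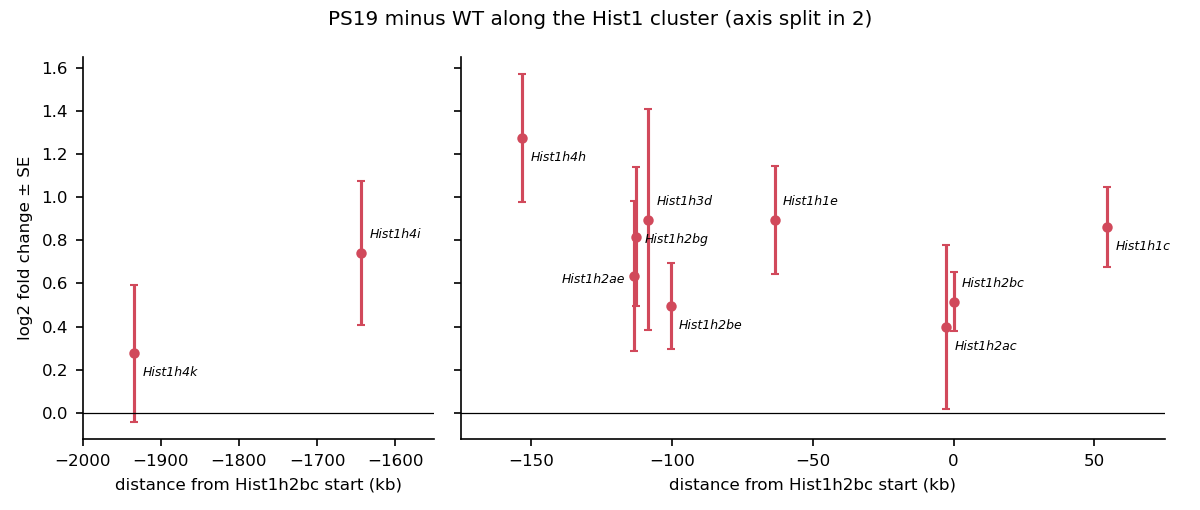
Log2 fold change in PS19 minus WT (points, ± SE as bars) against distance from the start of Hist1h2bc in kb, for the 11 described Hist1 genes, with the distance axis split in 2. The called genes lie at -153 kb (Hist1h4h), -63.6 kb (Hist1h1e), 0 kb (Hist1h2bc) and 54.6 kb (Hist1h1c), and all 11 points lie above 0.

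Promoter sequence is shown for the called genes because all 4 were higher in PS19 and lie in 1 cluster while they encode different histones. RefSeq windows (GRCm38.p6) from 250 bases before to 50 after each start were matched for 15 of the 18 genes, giving 16 windows. Hist1h2bc, Hist2h2be and Hist2h4 had no match and are not in the motif counts. A set of 4 short motifs known from histone promoters was searched on both strands of the 250 bases before the start, and a match is a description of letters only. The octamer ATTTGCAT, the site of Oct-type factors in H2B promoters, was in 7 of the 16 windows and in 1.60% of 32851 promoter windows of the same length. All 7 belonged to H2A or H2B genes, which had 9 of the 16 windows. CCAAT was in 12 of 16 against 33.8% of all windows, TATAAA in 9 against 12.4%, and AAACACA, known from H1 promoters, in 2 against 6.25%. Those 2 were Hist1h1c and Hist1h1e. Windows of neighbouring genes can overlap, as those of Hist1h2ae and Hist1h2bg did.

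The first sequence is the whole interval of 239 bases between the starts of Hist1h2ac and Hist1h2bc, chr13:23683960-23684198, written 5′ to 3′ on the minus strand, toward Hist1h2ac, and comes from the window of Hist1h2ac. The other 3 are the 250 bases before the starts of Hist1h1c, chr13:23738557-23738806 on the plus strand, of Hist1h1e, chr13:23622559-23622808 on the minus strand, and of Hist1h4h, chr13:23530794-23531043 on the plus strand. Capitals mark matches to the 4 motifs on either strand, so CCAAT on the opposite strand reads ATTGG.

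Hist1h2ac to Hist1h2bc: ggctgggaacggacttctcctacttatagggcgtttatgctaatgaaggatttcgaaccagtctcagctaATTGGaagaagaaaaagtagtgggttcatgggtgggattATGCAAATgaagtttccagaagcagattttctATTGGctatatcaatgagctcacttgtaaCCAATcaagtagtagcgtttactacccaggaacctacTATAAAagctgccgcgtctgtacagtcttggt

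Hist1h1c: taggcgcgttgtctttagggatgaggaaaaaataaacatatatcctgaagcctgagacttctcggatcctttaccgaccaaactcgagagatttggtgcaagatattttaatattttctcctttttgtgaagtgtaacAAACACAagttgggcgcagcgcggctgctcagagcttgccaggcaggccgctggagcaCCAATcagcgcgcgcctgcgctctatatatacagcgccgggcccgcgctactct

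Hist1h1e: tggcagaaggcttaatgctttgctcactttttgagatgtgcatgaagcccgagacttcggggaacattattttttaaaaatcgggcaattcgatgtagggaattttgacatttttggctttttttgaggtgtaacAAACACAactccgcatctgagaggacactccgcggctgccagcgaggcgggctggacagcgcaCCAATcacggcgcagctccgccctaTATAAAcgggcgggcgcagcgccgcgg

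Hist1h4h: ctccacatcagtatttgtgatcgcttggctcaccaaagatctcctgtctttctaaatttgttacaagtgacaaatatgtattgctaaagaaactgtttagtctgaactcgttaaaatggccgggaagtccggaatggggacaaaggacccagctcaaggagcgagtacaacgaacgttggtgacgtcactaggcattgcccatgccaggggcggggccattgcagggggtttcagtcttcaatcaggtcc

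The interval beside Hist1h2bc holds the octamer once, CCAAT 3 times and TATAAA once. TATAAA lies on the strand of Hist1h2ac, 32 bases before the start of that gene, which was not called. The octamer lies on the opposite strand, that of Hist1h2bc, 130 bases from the start of Hist1h2ac. CCAAT lies on the strand of Hist1h2ac at 69 bases from that start and on the opposite strand at 98 and 169. The stretch before Hist1h1c holds AAACACA once and CCAAT once, with the AAACACA match starting 112 bases before the start of the gene. The stretch before Hist1h1e, the other linker histone gene, holds TATAAA once, a single CCAAT and also AAACACA once, the last starting 115 bases before the start. None of the 4 was in the stretch before Hist1h4h, the gene with the highest log2 fold change.

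PS19/C3aR KO set against PS19 addresses the change labelled C3aR KO in the presence of the tau transgene. The PS19 libraries serve in both comparisons, so their values only stand side by side. Hist1h2bc was the 1 gene of the 18 called, and it was lower, where 0.18% of all tested genes were called lower. Its mean was 13.7 CPM in PS19/C3aR KO and 23.5 in PS19, with all 5 of the former below all 5 of the latter, as in 1.01% of all tested genes. Because Hist1h2bc was singled out with earlier results known, these shares are background values and lend it no weight. The log2 fold change was -0.78 (edgeR adjusted p = 0.0279, SE 0.14). The adjusted p was 0.120 when only these 2 groups were fitted and 0.0590 when the Rn45s share entered as a covariate. It was also 0.0592, 0.0539 and 0.0553 without PS19 library 1, 2 or 3 and 0.0521 without PS19/C3aR KO library 3, while the log2 fold change stayed between -0.86 and -0.66 whichever library was left out.

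The other genes that were called in PS19 minus WT were not called here. Hist1h4h had a log2 fold change of -0.87 (edgeR adjusted p = 0.163, SE 0.29), Hist1h1c one of -0.50 (SE 0.18, adjusted p = 0.211) and Hist1h1e one of -0.43 (SE 0.24, adjusted p = 0.444). Of the 18 genes 14 were below 0, and 4 had an unadjusted p below 0.05. The shares of all tested genes with these traits are not given, so both counts are description only. The median was -0.43 over the Hist1 genes and -0.041 over the others, against -0.0041 over all genes tested. Hist2h2be, at 8.56 to 12.5 CPM in PS19/C3aR KO and 6.44 to 11.0 in PS19, had a value of 0.28 (SE 0.15). Hist3h2a and Hist3h2ba were at -0.041 (SE 0.093) and -0.067 (SE 0.072).

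**Figure D4:**
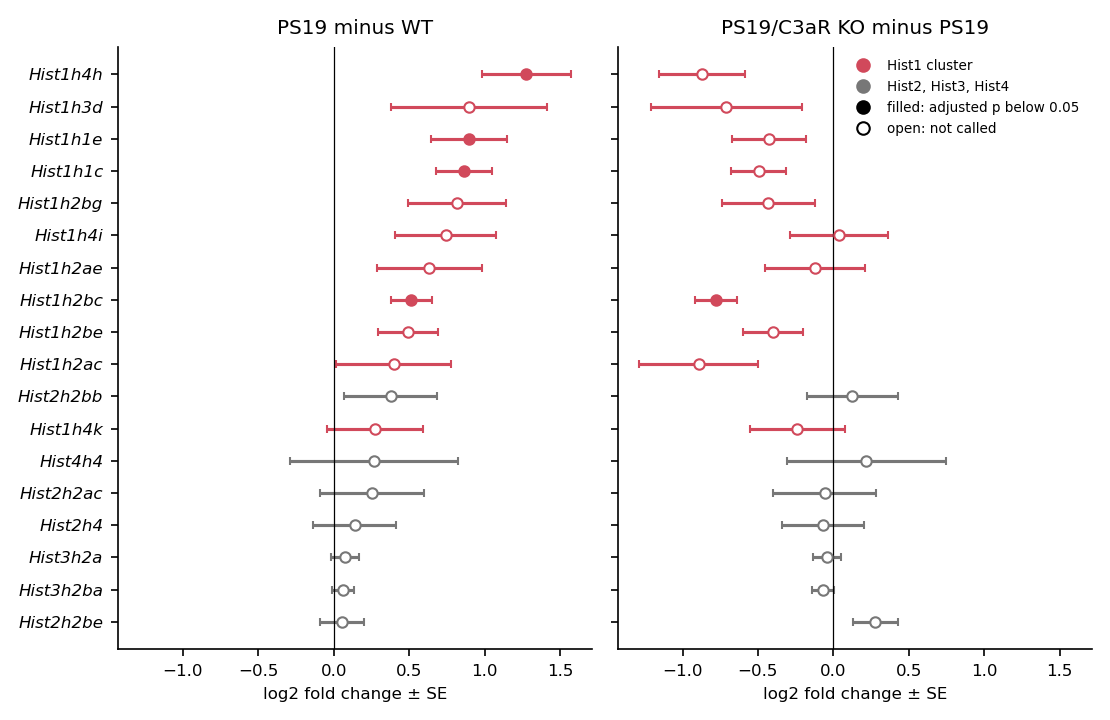
Log2 fold changes (points) ± SE (bars) of the 18 described genes in PS19 minus WT (left) and in PS19/C3aR KO minus PS19 (right), which share the PS19 libraries. Red marks the Hist1 cluster, grey the other clusters, and filled points adjusted p below 0.05: 4 on the left and Hist1h2bc alone on the right.

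Against the other 17 genes, Hist1h2bc held its highest mean share of the counts in PS19 and its lowest in PS19/C3aR KO. The 17 summed to 51.2 ± 4.32 CPM in WT, 66.5 ± 6.35 in PS19, 56.1 ± 5.97 in C3aR KO and 60.6 ± 10.7 in PS19/C3aR KO (5 libraries each, ± SD). The share of Hist1h2bc in the 18 was 23.5 ± 2.17% in WT, 26.1 ± 1.37% in PS19, 20.9 ± 2.62% in C3aR KO and 18.4 ± 2.19% in PS19/C3aR KO. This share ran from 24.9 to 27.8% in PS19 and from 15.5 to 20.9% in PS19/C3aR KO, so those groups did not overlap. WT, at 21.9 to 27.2%, overlapped with PS19. The summed level of the other 17 overlapped between PS19, at 58.1 to 75.4 CPM, and PS19/C3aR KO, at 47.8 to 75.8 CPM. No test is given for the share or the sum, since the members were chosen with results known.

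**Figure D5:**
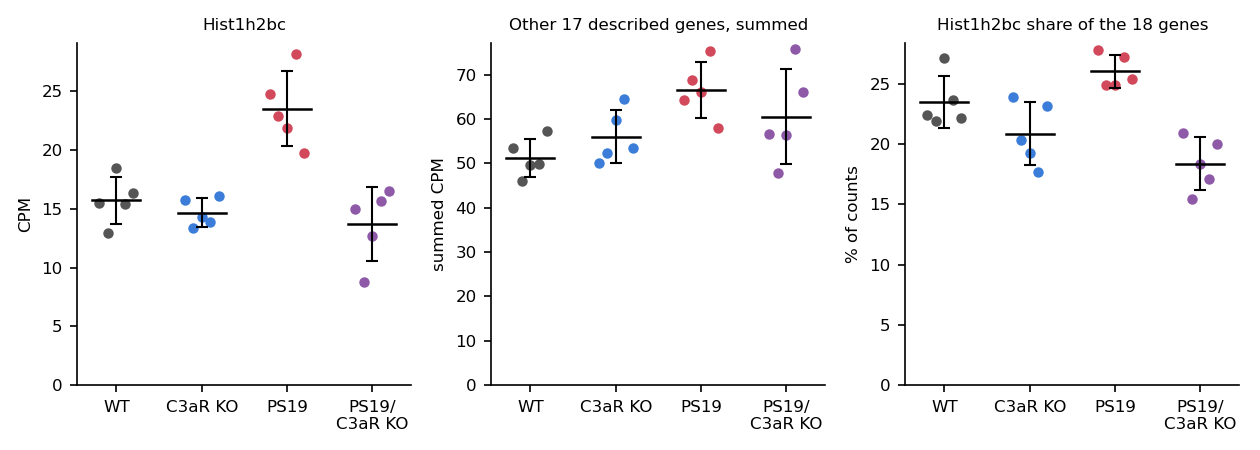
Hist1h2bc in CPM (left), the other 17 described genes summed in CPM (middle) and the share of Hist1h2bc in the counts of the 18 in percent (right); points are libraries, long bars the mean and short bars ± SD over 5 libraries per group. The share is 24.9 to 27.8% in PS19, apart from the 15.5 to 20.9% of PS19/C3aR KO.

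In C3aR KO minus WT edgeR called 0 of the 18 genes, against 0.06% of all tested genes. Only Hist2h2be had an unadjusted p below 0.05. DESeq2 called 0 of the 18, against 31 higher and 27 lower calls over 16644 genes. Hist2h2be was at 8.37, 7.56, 9.74, 6.19 and 8.30 CPM in WT and at 8.10, 10.5, 10.6, 12.7 and 10.1 CPM in C3aR KO. The value for the comparison, on the log2 scale, was 0.33 (edgeR adjusted p = 0.801, SE 0.15), and the groups overlapped through C3aR KO library 1. Hist1h2bc had a value of -0.14 (SE 0.14), Hist1h1c of 0.23 (SE 0.19), Hist3h2a of 0.031 (SE 0.093) and Hist3h2ba of -0.060 (SE 0.072).

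In PS19/C3aR KO minus C3aR KO, the tau comparison within the libraries labelled C3aR KO, edgeR again called 0 of the 18, against 0.006% of all tested genes. None had an unadjusted p below 0.05, and DESeq2 called 0, against 125 higher and 33 lower calls over 16644 genes. Hist1h2bc had a log2 fold change of -0.13 (SE 0.14), Hist1h1c 0.14 (SE 0.18), Hist1h1e 0.48 (SE 0.25) and Hist1h4h 0.18 (SE 0.30). Of the abundant genes outside Hist1, Hist3h2a was at 0.0016 (SE 0.093), Hist3h2ba at 0.056 (SE 0.072) and Hist2h2be at 0.0025 (SE 0.15).

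Whether the PS19 effect differed between the 2 backgrounds was tested as an interaction, the PS19 effect in C3aR KO minus that in WT. By edgeR 0 of the 18 passed, against 0.012% of all tested genes. DESeq2 called 0 of them, against 0 higher and 3 lower calls over 16644 genes. Unadjusted p-values below 0.05 were found for 4 genes, with interactions of -0.64 for Hist1h2bc (SE 0.19), -0.72 for Hist1h1c (SE 0.26), -1.10 for Hist1h4h (SE 0.42) and -1.09 for Hist1h2bg (SE 0.45). All had an edgeR adjusted p of 0.9995, and Hist1h2bg rested on only 3 to 19 counts per library. A different PS19 effect in the 2 backgrounds was therefore not shown for any of the 18 genes.

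Genes that act with or beside the clustered histones were read from lists written with earlier results known, against shares of all tested genes of 7.5% called higher and 3.32% called lower in PS19 minus WT. Among 11 tested histone genes outside the clusters, edgeR called 1 in PS19 minus WT, H3f3a, at a log2 fold change of 0.22 (adjusted p = 0.0122, SE 0.055), which was lost with the Rn45s covariate (0.20, adjusted p = 0.110). H3f3a encodes the replication-independent H3.3 and averaged 89.0 ± 5.63 CPM in WT and 108 ± 5.90 in PS19. Of 20 genes of S phase and cell division, 3 were called higher. Top2a, a DNA topoisomerase, had a log2 fold change of 1.36 (SE 0.29, adjusted p = 0.00525), Rrm2, which encodes a subunit of ribonucleotide reductase, one of 0.67 (SE 0.16, 0.00933), and Cdk1, the mitotic kinase, one of 1.21 (SE 0.37, 0.0401). The median of that list was 0.16. Mki67, a proliferation marker of the same list, was at 3.26 ± 0.337 CPM in WT and 3.70 ± 0.798 in PS19 and was not called.

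The call of Cdk1, at 0.256 CPM in WT and 0.621 in PS19, was lost in 10 of 29 alternatives. That of Rrm2 was lost with the Rn45s covariate (0.50, adjusted p = 0.144). Of 18 genes for processing and turnover of histone mRNA, edgeR called 0 in PS19 minus WT, with 2 at an unadjusted p below 0.05, and DESeq2, which called 13.6% of all genes it tested, called 1, Sympk, a scaffold of the cleavage machinery (edgeR log2 fold change -0.10, SE 0.035). Slbp, which encodes the protein that binds the stem-loop, was at 19 ± 1.66 CPM in WT and 19.2 ± 1.73 in PS19. Of 15 cleavage and polyadenylation factors, edgeR and DESeq2 called 0, and 3 had an unadjusted edgeR p below 0.05. Among 15 histone chaperones Hira, which deposits H3.3, was called lower, at -0.16 (adjusted p = 0.0121, SE 0.040). Its call was lost with library totals alone (-0.10, adjusted p = 0.109) and with the Rn45s covariate (-0.15, adjusted p = 0.101). For PS19/C3aR KO minus PS19 edgeR called 0 genes in each of these 5 lists, where 0.252% of all tested genes were called. Each list had 1 to 3 genes at an unadjusted p below 0.05, and DESeq2, with 2.64% of all its genes called, called 1 in all, again Sympk (edgeR log2 fold change 0.12, SE 0.035).

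Markers of microglia, astrocytes and mature oligodendrocytes moved with the same groups, while 1 of excitatory neurons was called lower in PS19 minus WT only. In PS19 minus WT edgeR called 15 of 15 microglial markers, 9 of 10 astrocyte markers and 3 of 9 markers of mature oligodendrocytes (Cldn11, Mag and Trf) higher, where 7.5% of all tested genes were called higher. Of 7 markers of oligodendrocyte precursors edgeR and DESeq2 called 0, with 2 at an unadjusted p below 0.05. Of 9 markers of excitatory neurons edgeR called Slc17a7, a glutamate transporter of synaptic vesicles, lower, and 3 had an unadjusted p below 0.05. These 9 summed to 5116 to 7011 CPM in WT, 5169 to 5977 in PS19, 4898 to 6714 in C3aR KO and 4341 to 5775 in PS19/C3aR KO. The astrocyte markers summed to 5956 to 6348 CPM in WT, 7153 to 11415 in PS19, 6126 to 7009 in C3aR KO and 6996 to 8779 in PS19/C3aR KO. Those of mature oligodendrocytes summed to 3706 to 5372, 6071 to 7183, 3047 to 5267 and 4357 to 6164 CPM in the same order.

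In PS19/C3aR KO minus PS19 edgeR called 1 of 15 microglial markers, Clec7a, lower, where 0.18% of all tested genes were called lower. Of these 15, 14 had an unadjusted p below 0.05 and DESeq2 called 11, where it called 2.64% of all genes. Of 10 astrocyte markers edgeR called 0, 8 had an unadjusted p below 0.05 and DESeq2 called 3. Of 9 oligodendrocyte markers edgeR called 0, 5 had an unadjusted p below 0.05 and DESeq2 called 1. Of 9 markers of excitatory neurons edgeR and DESeq2 called 0, and 0 had an unadjusted p below 0.05. No microglial, astrocyte or oligodendrocyte marker was at 0. The markers named here were chosen after their values were seen. PS19 library 5 was the lowest PS19 library both for the microglial sum and for Hist1h2bc, so leaving it out raises the PS19 mean of each. The log2 fold changes of Hist1h2bc were then 0.56 in PS19 minus WT (adjusted p = 0.0142) and -0.83 (adjusted p = 0.00645) for PS19/C3aR KO minus PS19, which says nothing of glial content. Rn45s also moved with the groups, and the calls lost with its share as a covariate are given beside the genes. The part of glial content in the histone values was not tested.

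Within genotypes, Hist1h2bc varied together with Hist1h1c by Pearson's r, and by Spearman's rho missed the threshold. Log2 CPM minus the mean of the genotype was compared over 20 libraries for the 5 other genes with at least 100 counts in every library. For Hist1h1c Pearson's r was 0.73 (p = 0.00557, adjusted over the 5 relations 0.0279) and Spearman's rho 0.57 (p = 0.0229, adjusted 0.0625), by 100000 permutations within genotypes. Without PS19/C3aR KO libraries 2 and 5, the farthest from the median of Hist1h2bc, r was 0.54. For Hist1h2be r was 0.57 (adjusted permutation p = 0.0822) and rho 0.58, for Hist3h2a 0.36 and 0.45, for Hist2h2be 0.24 and 0.34, and for Hist3h2ba -0.16 and -0.19, none of them past 0.05 after adjustment. Among all genes tested, the 5 with the highest r with Hist1h2bc on the same scale were Rpn2 (0.84), Reps1 (0.81), St7l (0.79), Pdcd6ip (0.79) and Morf4l1-ps1 (0.79), none of them a histone gene. None of these 5 was called in PS19 minus WT.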

How the data were processed

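RNA was measured in 20 libraries, 5 for each of 4 genotypes taken from the titles. Per the labels' protocols, 76-base read pairs were aligned to mm10 with TopHat2 2.0.9, and htseq-count gave the reads in each gene's exons. DESeq2 is named without a role, per the submitters' processing notes. The deposited values are whole-number counts with no normalization by the authors. For the strand setting and annotation release: not given in the sources used here. The 5 summary lines of each file were left out; pairs meeting no exon were 17.4 to 25.4% of uniquely aligned pairs.

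CPM are counts over the total of gene counts. Tests used 1 edgeR 4.0.16 quasi-likelihood fit (R 4.3.3, TMM, genotype only, filterByExpr with minimum count 10 and total 15), which kept 16657 genes and all 18 described members. Its 5 comparisons were adjusted by Benjamini-Hochberg over all genes at 0.05. DESeq2 1.42.0, other normalizations, filters, covariates, a replicate block and leaving out each library were alternatives. On simulated counts for PS19 minus WT over 16657 genes the test was checked beforehand. Every described member was named by its range, called members by library, and the 4 nearest Hist1h2bc in level in each comparison. For each companion list, called genes or the most abundant were eligible, and the 5 genes most like Hist1h2bc were named. Mki67 and Slbp were named outside that rule. Members and lists were chosen with earlier results of these data known. Counts of members or markers by sign, or at an unadjusted p below 0.05, stand without the share over all tested genes and are description only. Stem-loops and windows are from GENCODE vM21, promoters from RefSeq. Gene counts of 33885850 to 47828111 per library set the precision, which is lowest for the genes of fewest counts.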

Additional observations from a re-analysis of the deposited data

How the results depend on the processing

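With the Rn45s share as a covariate, 0 of the 18 genes were called in PS19 minus WT in place of 4, and Hist1h2bc had a log2 fold change of 0.48 (adjusted p = 0.139). Calls over all genes also fell with it, to 411 higher and 65 lower from 1250 and 553, so the loss was not particular to the histone genes. For PS19/C3aR KO minus PS19 that covariate gave 0 calls in place of 1, with Hist1h2bc at -0.77 (adjusted p = 0.0590), and fitting only the 2 groups compared also gave 0, with Hist1h2bc at -0.77 (adjusted p = 0.120). The causes were not tested. Leaving out 1 library gave 2 to 5 calls in PS19 minus WT (2, Hist1h1c and Hist1h4h, without PS19 library 4) and 0 to 1 in PS19/C3aR KO minus PS19, with Hist1h2bc at 0.44 to 0.59 and -0.86 to -0.66. Over 2497 alternative values of 84 log2 fold changes, 30 lost and 4 gained a call, 119 changed sign with no call on either side, and none of the called values changed sign. Over all genes, calls in PS19/C3aR KO minus PS19 were 42 by edgeR, 439 by DESeq2 and 8 with the Rn45s covariate; in PS19 minus WT, library totals alone gave 1795 higher and 176 lower calls against 1250 and 553. The labels do not say that replicate numbers mark shared animals or batches, and not every same-number pair deviated together: 16 of 30 had r above 0.1. Their median r was 0.14 against -0.042 for other pairs, and 6 of 20 libraries were most like one of their own number. With a replicate block, calls over all genes went from 12 higher and 30 lower to 40 and 172 in PS19/C3aR KO minus PS19 and from 1 and 0 to 21 and 1 in PS19/C3aR KO minus C3aR KO. Among the 18 genes the calls with the block numbered 4 in PS19 minus WT, 1 in PS19/C3aR KO minus PS19 and 0 in each other comparison, with Hist1h2bc at 0.52 and -0.80. A threshold of 20 counts would describe 13 genes, and 10 counts in all 20 libraries 12. Hist1h2bg, Hist1h2ae, Hist1h3d, Hist1h2ac and Hist4h4 rest on few counts, at 1 to 30 per library. Differences in these genes were not detectable at this depth unless large.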
